A study of Mus musculus with 14 samples.

Results

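Megakaryocytes are the marrow cells that shed platelets, and the genes followed here encode 7 of their products: Pf4, Ppbp, Vwf, Gp1bb, Gp9, Itga2b and Treml1. They were chosen by symbol, and all 7 were found in both deposited tables, among 24980 genes in the dendritic cell table and 17118 genes in the table of monocytes and macrophages. Expression was measured by bulk RNA sequencing of 14 libraries of cells sorted from the bone marrow of mice carrying Cx3Cr1gfp/+, a GFP reporter in place of 1 copy of the chemokine receptor gene Cx3cr1. The design text calls the treated mice wildtype, and the reporter is taken here from the sorting protocol, which covers every group. Macrophages (3 libraries, at baseline) were sorted as GFP-negative, MHC class II high and CD169-positive cells lacking Gr-1 and B220. Monocytes (3 libraries, at baseline) were GFP-high, CD115-positive and B220-negative, with Gr-1 low and high cells together. Dendritic cells were GFP-high, MHC class II high and CD11c high cells lacking Gr-1 and B220, and came from mice given 1 dose of PAM3CSK4 (4 libraries) or vehicle alone (4 libraries). PAM3CSK4 is a synthetic lipopeptide agonist of Toll-like receptor 2 paired with Toll-like receptor 1. The labels leave out age, sex, dose, the time to collection and whether each library had its own mouse. A p-value below therefore speaks only of the spread among libraries of a group, some of which may be technical. None of the gates used CD41, CD42 or another platelet antigen.

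Megakaryocytes fill alpha granules with chemokines and adhesive proteins, and build surface receptors that bind injured vessel walls and fibrinogen. Pf4 (CXCL4) and Ppbp (the precursor of CXCL7) are granule chemokines. Vwf, the multimeric adhesive ligand of platelets, is also made by endothelial cells. Gp1bb and Gp9 are subunits of the receptor that binds Vwf, Itga2b (CD41) is the alpha chain of the fibrinogen receptor and is also carried by blood progenitors, and Treml1 is a receptor stored in alpha granules. Pf4 is also expressed by some tissue macrophages in mice.

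Values are CPM, reads scaled to a library total without division by gene length. The libraries labelled macrophage held genes of several cell types, which bears on every comparison with them. Monocyte markers were lower there (8 of 10 tested), and 5 of 11 tested resident macrophage markers were higher, among them the adhesion molecule Vcam1 and the iron exporter Slc40a1, while Adgre1 (F4/80) was lower. Siglec1, which encodes the CD169 of the gate, was at 18.9, 18.6 and 25.2 CPM in macrophages and 34.7, 2.20 and 14.1 CPM in monocytes. Of 12 progenitor genes 10 were higher in macrophages, as were all 11 erythroid genes tested, where 12.8% of all genes tested were higher. Of these, 4 progenitor and 4 erythroid genes reached 1 CPM in at most 1 monocyte library, so they were tested only through macrophages. The monocyte libraries differed too. Monocyte replicate 1 held 2853 CPM over 10 dendritic cell genes, against 639 and 278 CPM in replicates 2 and 3. It was also the highest monocyte library for every member except Ppbp. Among dendritic cell libraries, PAM3CSK4 replicate 4 stood apart, with Itgax, the CD11c of the gate, at 27.5 CPM beside 181 to 283 CPM in the remaining PAM3CSK4 libraries, and with summed levels of 11401 CPM for 10 neutrophil genes and 1234 CPM for 11 erythroid genes. The values of a library summed to 350368 to 578711 CPM. If the smallest regular step between low values is 1 read, 1 CPM stood for 28.2 to 75.1 reads.

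Of the members, 6 were higher in macrophages than in monocytes at baseline, by 12.6-fold to 36.7-fold in mean CPM. The seventh, Ppbp, was high in 1 macrophage library and was not tested, because it reached 1 CPM in too few libraries. The test took in genes at 1 CPM or more in 3 or more libraries of this comparison. Of all 12188 genes tested, 12.8% were higher in macrophages and 7.42% lower (adjusted p under 0.05). Pf4, Gp1bb, Gp9 and Treml1 reached 1 CPM in every macrophage library but in at most 1 monocyte library, so they were tested only through the group where they were high, and their calls add nothing to the count. Vwf and Itga2b reached 1 CPM in all 6 libraries. In bulk libraries, fewer cells of a type and less RNA per cell cannot be told apart. Adjusted p-values are two-sided, from limma after Benjamini-Hochberg adjustment across every gene tested. A log2 change refers to log2(CPM + 1), a scale that understates the change of low genes.

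Among the granule chemokines, Pf4 (chromosome 5, 90772435 to 90773384, mm10) was at 22.3, 30.5 and 9.80 CPM in macrophage replicates 1 to 3 and at 2.21, 0.0001 and 0.563 CPM in the monocyte libraries. The value 0.0001 is the lowest in the table and stands for no read, and 3807 genes were listed at it in that monocyte library, against 1622 and 2368 in the other monocyte libraries. The groups did not overlap, and the log2 change was 3.54 ± 0.47 (SE, adjusted p = 0.00028). Ppbp (chromosome 5, 90768518 to 90770063), its neighbour on the same strand, was at 0.778, 17.1 and 2.03 CPM in macrophages and 0.0532, 0.521 and 0.131 CPM in monocytes. Every macrophage library was above every monocyte library for Ppbp, but replicate 2 alone held most of the group's signal. With a gene required to reach 1 CPM in only 1 library, the log2 change of Ppbp was 1.92 ± 0.65 and did not pass (adjusted p = 0.057). With 1 library left out and Ppbp in the test through the remaining macrophage libraries, where it is high, it passed without macrophage replicate 1 or monocyte replicate 1 (adjusted p = 0.034 and 0.043) and did not pass without monocyte replicate 2 or 3 (adjusted p = 0.084 and 0.079).

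Vwf (chromosome 6, 125552948 to 125686680) was at 52.5, 87.1 and 23.2 CPM in macrophages and 5.57, 1.86 and 1.82 CPM in monocytes. The groups did not overlap, and the log2 change was 3.69 ± 0.47 (adjusted p = 0.00019). Of the endothelial genes, 7 of 10 tested were higher in macrophages and 0 lower, including the angiopoietin receptor Tek and the vascular mucin Emcn. Among all genes tested 12.8% were higher. Tek, Emcn and Kdr reached 1 CPM in no monocyte library and were tested only through macrophages. The 14 listed endothelial genes summed to 169 to 275 CPM in macrophages and 76.1 to 132 CPM in monocytes. Endothelial genes below the filter included the cadherin Cdh5, the claudin Cldn5 and the transcription factor Sox18, which were at most at 4.02, 0.771 and 0.412 CPM in any macrophage library and at most at 1.01, 0.0939 and 0.180 CPM in any monocyte library. Of the 14 listed endothelial genes, Tek, Tie1, Emcn, Egfl7, Eng and Erg were highest in macrophage replicate 1. The others, Cdh5, Cldn5 and Sox18 among them, were highest in macrophage replicate 3. The part of endothelial RNA in the level of Vwf was not tested, nor was that of progenitor RNA in the levels of the endothelial genes.

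The receptor subunits were low but higher in macrophages. Gp9 (chromosome 6, 87778070 to 87779763) was at 2.45, 5.77 and 2.27 CPM in macrophages and 0.513, 0.0001 and 0.150 CPM in monocytes, a log2 change of 1.82 ± 0.35 (adjusted p = 0.0029). Gp1bb (chromosome 16, 18620319 to 18622404) was at 3.85, 3.22 and 1.14 CPM in macrophages and 0.568, 0.0001 and 0.0253 CPM in monocytes, a log2 change of 1.59 ± 0.36 (adjusted p = 0.0085). The groups did not overlap for either gene. Without macrophage replicate 1 the call of Gp1bb was lost (adjusted p = 0.053). In GENCODE M21, Gp1bb shares 1902 bases of its span with the septin gene Sept5 on the same strand, so reads of these genes may be divided between them in an uncertain way. Sept5 was also higher in macrophages, at 10.3 ± 4.599 CPM against 1.60 ± 1.21 CPM in monocytes (SD, n = 3 each; log2 change 2.13 ± 0.40, adjusted p = 0.0026).

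Itga2b had the largest change of the members. Itga2b (chromosome 11, 102453297 to 102469884) was at 81.3, 93.5 and 31.5 CPM in macrophages and 2.53, 1.102 and 1.99 CPM in monocytes, with a log2 change of 4.49 ± 0.40 (adjusted p = 2.5e-05). Treml1 (chromosome 17, 48359916 to 48367177) was at 3.17, 5.31 and 1.16 CPM in macrophages and 0.425, 0.0001 and 0.338 CPM in monocytes, a log2 change of 1.63 ± 0.39 (adjusted p = 0.010). The groups did not overlap for either gene, as for 20.4% of all genes tested in this direction. The call of Treml1 was lost without macrophage replicate 1 or 2 (adjusted p = 0.058 and 0.053), and those of Treml1 and Gp1bb after quantile normalization (adjusted p = 0.11 and 0.072). Pf4, Vwf, Gp9 and Itga2b stayed past the threshold whichever library was omitted and in all other settings tried, although Gp9 came close to it after quantile normalization (adjusted p = 0.049).

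**Figure D1:**
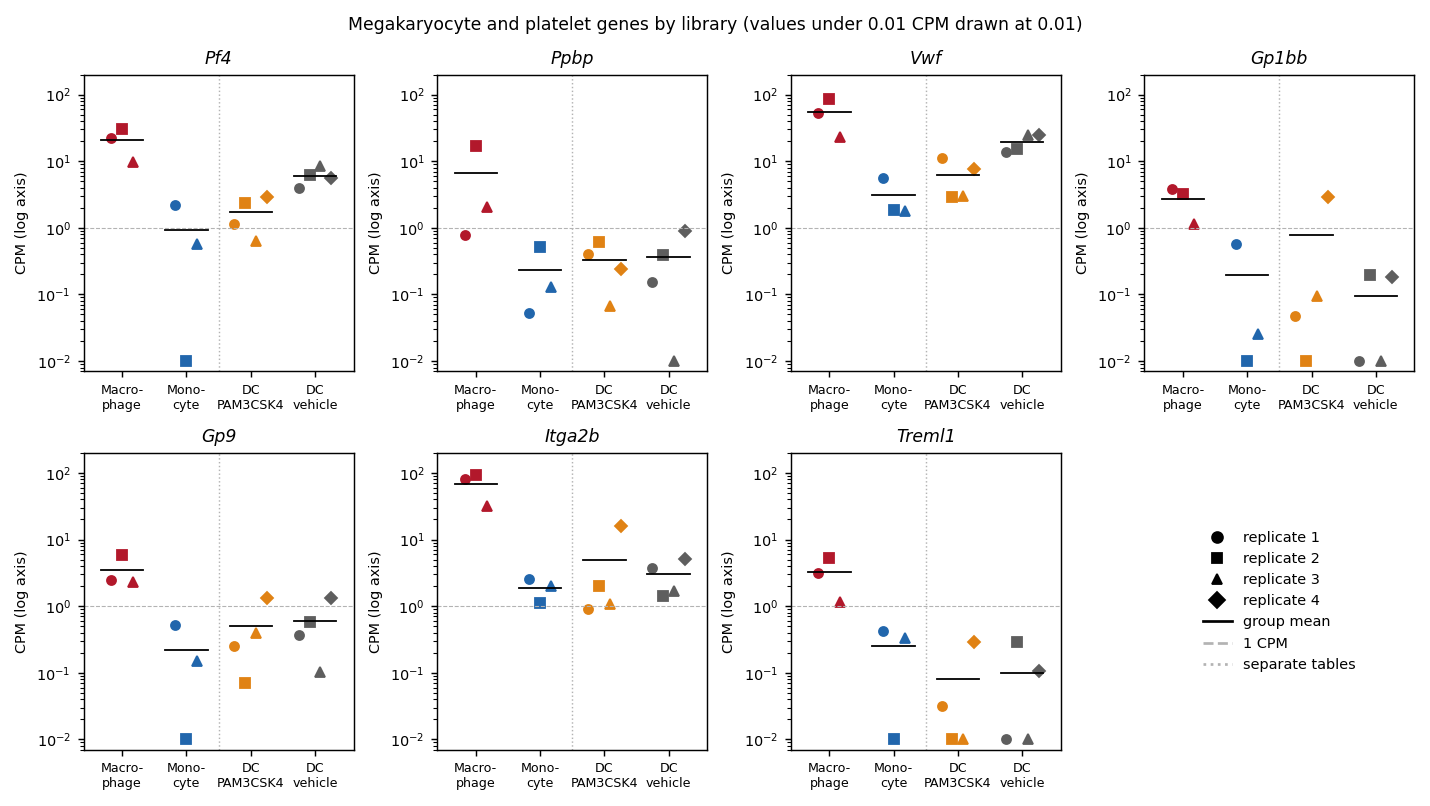
CPM of the 7 members in each library (log axis) for macrophages and monocytes and, from a separate table, dendritic cells after PAM3CSK4 or vehicle; points are libraries, marked by replicate, and black lines are group means. Itga2b sits between 31.5 and 93.5 CPM in macrophages, and PAM3CSK4 replicate 4, at 15.9 CPM, is its highest library outside them.

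The macrophage libraries differed in which members they held most of. Replicate 2 was highest for Pf4, Ppbp, Vwf, Gp9, Itga2b and Treml1, and replicate 1 was highest for Gp1bb. Replicate 3 was lowest for every member except Ppbp, which was lowest in replicate 1. Between replicates 1 and 2, Itga2b was nearly level at 81.3 and 93.5 CPM, whereas Ppbp was at 0.778 and 17.1 CPM. The summed level of the 7 members was 166, 243 and 71.2 CPM in macrophage replicates 1, 2 and 3 and 11.9, 3.49 and 5.01 CPM in monocytes. That of 12 progenitor genes was 1758, 1082 and 745 CPM in macrophages and 311, 393 and 135 CPM in monocytes, and was thus highest in the macrophage library with the least Ppbp. Itga2b and several regulators below are shared with progenitors. The part of progenitor RNA in the levels of the members and of the further genes below was not tested.

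Levels of different genes can be compared only per length, here CPM per kilobase of the longest coding transcript in GENCODE M21. On that scale Pf4 led in macrophages at 35.5 ± 17.7 (SD, n = 3), followed by Itga2b at 20.0 ± 9.56, Vwf at 6.15 ± 3.62, Ppbp at 6.14 ± 8.41, Gp9 at 3.97 ± 2.23, Treml1 at 2.60 ± 1.68 and Gp1bb at 1.31 ± 0.68. Neighbours in this order lie within 1 SD of each other, apart from the step between Itga2b and Vwf. In vehicle dendritic cells Pf4 also led at 10.3 ± 3.22 CPM per kilobase (n = 4), and Vwf at 2.22 ± 0.68 stood above Itga2b at 0.87 ± 0.51. The order of Vwf and Itga2b was thus opposite in the mean values of these populations, a difference that was not tested because the tables may have been scaled separately.

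To show the start of members that were high together in macrophages, the sequences below run from 250 bases before to 50 bases after the start site in RefSeq (GRCm38.p6, the build of mm10), read on the strand of the gene. They are Pf4 at chr5:90772185-90772484 (plus strand), Gp9 at chr6:87777820-87778119 (plus strand) and Itga2b at chr11:102469834-102470133 (minus strand). Capitals mark matches to GATAA, a form of the site of GATA factors, and to GGAAG, a core bound by ETS factors, each on either strand (as TTATC or CTTCC on the other). GATA and ETS factors regulate many megakaryocyte genes.
Pf4: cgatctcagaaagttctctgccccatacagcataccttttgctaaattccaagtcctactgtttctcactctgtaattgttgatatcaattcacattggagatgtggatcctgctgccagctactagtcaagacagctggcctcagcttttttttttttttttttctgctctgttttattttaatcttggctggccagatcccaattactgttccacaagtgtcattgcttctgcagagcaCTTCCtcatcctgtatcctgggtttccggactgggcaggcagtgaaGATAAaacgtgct
Gp9: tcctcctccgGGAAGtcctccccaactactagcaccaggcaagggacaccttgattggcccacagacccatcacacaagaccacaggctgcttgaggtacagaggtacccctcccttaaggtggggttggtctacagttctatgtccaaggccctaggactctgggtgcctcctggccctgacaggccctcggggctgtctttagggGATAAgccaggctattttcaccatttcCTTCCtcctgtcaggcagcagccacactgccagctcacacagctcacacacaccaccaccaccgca
Itga2b: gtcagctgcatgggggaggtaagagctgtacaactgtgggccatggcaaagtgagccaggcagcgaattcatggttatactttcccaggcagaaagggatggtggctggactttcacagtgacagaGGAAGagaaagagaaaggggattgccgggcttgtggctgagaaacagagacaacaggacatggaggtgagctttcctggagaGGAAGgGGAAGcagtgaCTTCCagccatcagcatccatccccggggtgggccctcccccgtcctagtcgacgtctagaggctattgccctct

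Of the 6 members with a promoter in the RefSeq table, 2 held GATAA on either strand (Pf4 and Gp9), where 25.4% of 32851 promoters of this length hold it. GGAAG was in all 6, where 71.4% of the promoters hold it. In Gp9 the GATAA match begins at −43 from the start site and a CTTCC match at −16, and in Pf4 the CTTCC match begins at −9 and GATAA at 37 after the start. Itga2b held 4 matches to GGAAG or its complement, at −124, −42, −36 and −25, and no GATAA in this window. A match is a string of letters and not a measured binding site.

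Further megakaryocyte and platelet genes were also higher in macrophages. Of 48 such genes tested, 19 were higher and 1 was lower, with a median log2 change of 0.64 beside 0.10 for all genes tested, of which 12.8% were higher. Of the 19, 14 reached 1 CPM in at most 1 monocyte library, 9 of them in none, so these 14 were tested only through macrophages, where they are high, and the count and the median are a description. With 1 library left out, 15 to 21 were higher and 0 to 6 were lower. By role, 6 of 12 receptor genes were higher, 5 of them (all but Cd9) tested only through macrophages. Gp5, the subunit that completes the Vwf receptor, was at 9.12, 11.5 and 3.28 CPM in macrophages and 0.106, 0.481 and 0.263 CPM in monocytes (log2 change 2.68 ± 0.39). The collagen-binding integrin chain Itga2 (2.71 ± 0.30), the thrombin receptor F2rl3 (2.46 ± 0.39), the thromboxane receptor Tbxa2r (2.47 ± 0.35), Cd9 (1.82 ± 0.33) and the adhesion molecule Esam (2.30 ± 0.44) were higher too. Gp1ba, the Vwf-binding subunit, did not pass at 11.8 ± 3.81 CPM in macrophages and 8.09 ± 0.14 CPM in monocytes (adjusted p = 0.36). Itgb3, the partner chain of Itga2b, did not pass either, with a log2 change of 0.60 ± 0.29 (adjusted p = 0.18). Gp6, the collagen receptor, was below the filter, at 0.631 CPM in macrophage replicate 2 and no more than 0.195 CPM elsewhere in this comparison.

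Of 12 granule genes 5 were higher, all but Serpine2 tested only through macrophages: the multimerin Mmrn1 (4.48 ± 0.36), Slc35d3 (2.91 ± 0.34), the adhesion receptor P-selectin gene Selp (1.66 ± 0.39), the protease inhibitor Serpine2 (1.43 ± 0.34) and clusterin Clu (1.19 ± 0.36). Thbs1, Tgfb1 and the coagulation factor gene F5 did not pass, with log2 changes of −0.09 ± 0.77, −0.75 ± 0.28 and −0.26 ± 0.32. Of 12 genes of the cytoskeleton and signalling, 3 were higher, all tested only through macrophages: the vesicle GTPase Rab27b (3.50 ± 0.42), the myosin kinase Mylk (2.996 ± 0.33) and the G protein subunit Gng11 (1.47 ± 0.38). Rasgrp2, an activator of the integrin switch Rap1, was lower (−0.90 ± 0.29, adjusted p = 0.049). Of 12 regulators 5 were higher, of which Gfi1b and Gata1 were tested only through macrophages: Zfpm1, the cofactor of GATA1 (4.16 ± 0.39), Gfi1b (3.05 ± 0.32), Gata1 (2.95 ± 0.40), Meis1 (2.88 ± 0.40) and Tal1 (2.75 ± 0.29). Fli1 and Runx1, which many blood cells share, did not pass (0.18 ± 0.24 and −0.26 ± 0.25). Gata1, Gfi1b and Tal1 also serve erythroid cells, and erythroid genes summed to 238 to 963 CPM in macrophages and 9.66 to 82.9 CPM in monocytes. The part of erythroid RNA in the levels of these regulators was not tested.

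**Figure D2:**
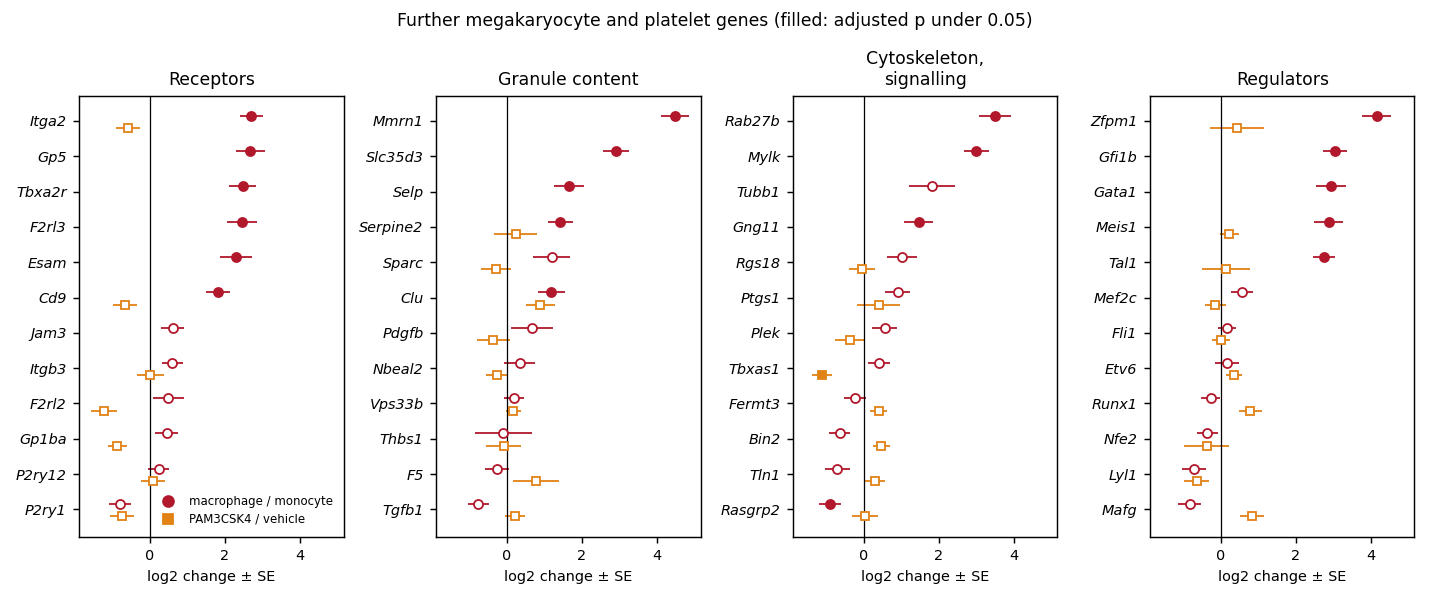
Log2 changes (± SE) of the further genes by role, for macrophages over monocytes (circles) and for PAM3CSK4 over vehicle in dendritic cells (squares); filled symbols passed an adjusted p of 0.05. In macrophages over monocytes 19 of 48 genes are filled on the right of 0 and Rasgrp2 on the left, and in dendritic cells Tbxas1 alone is filled.

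In dendritic cells after PAM3CSK4, Pf4 and Vwf were lower than with vehicle, and Itga2b, also tested here, did not pass. Tested genes were at 1 CPM or more in at least 4 of the 8 libraries. Of all 11377 such genes, 2.29% were lower and 2.82% higher. The mean level after PAM3CSK4 was 0.289 of that with vehicle for Pf4 and 0.315 of it for Vwf. Gp1bb, Gp9, Ppbp and Treml1 were below the filter. The median log2 change of all genes tested was 0.20 as deposited.

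Pf4 was at 1.15, 2.34, 0.628 and 2.89 CPM in PAM3CSK4 replicates 1 to 4 and at 3.93, 6.30, 8.48 and 5.53 CPM in vehicle replicates 1 to 4. Every PAM3CSK4 library lay below every vehicle library, as for 4.68% of all genes tested in this direction. The log2 change was −1.40 ± 0.32 (SE, adjusted p = 0.029). At 1 read per step these values came from 19 to 332 reads. The call was lost without PAM3CSK4 replicate 3 (adjusted p = 0.077) and without vehicle replicate 1, 2, 3 or 4 (adjusted p = 0.053, 0.087, 0.085 and 0.069), with log2 changes between −1.60 and −1.18 over all 8 omissions.

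Vwf was at 11.3, 2.87, 2.97 and 7.64 CPM with PAM3CSK4 and at 13.6, 15.4, 25.1 and 24.5 CPM with vehicle. The groups did not overlap, although PAM3CSK4 replicate 1 came close to vehicle replicate 1. The log2 change was −1.65 ± 0.38 (adjusted p = 0.031). The call was lost without PAM3CSK4 replicate 2 or 3 (adjusted p = 0.064 and 0.079) and without vehicle replicate 1, 2, 3 or 4 (adjusted p = 0.065, 0.070, 0.093 and 0.086), with log2 changes between −1.97 and −1.41. Without PAM3CSK4 replicate 4, which stood apart, both passed, with log2 changes of −1.60 ± 0.31 for Pf4 and −1.80 ± 0.38 for Vwf (adjusted p = 0.0065 and 0.011). With no filter on low values, where all 24980 genes entered the fit, those without a read included, neither passed (adjusted p = 0.19 and 0.20).

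Some dendritic cell and monocyte markers were lower together with Pf4 and Vwf, where 2.29% of all genes tested were lower. The other markers of these lists did not pass. Among them only Ccr7 (log2 change 1.37 ± 0.62), Vcan (0.91 ± 0.61) and Ly6c2 (0.59 ± 0.60) changed upward. Of 10 dendritic cell genes tested, 4 were lower and 0 higher, namely the lectins Cd209a (log2 change −7.12 ± 0.54), Mgl2 (−5.60 ± 0.42, tested only through vehicle libraries) and Clec10a (−4.27 ± 0.42) and the transcription factor Zbtb46 (−1.68 ± 0.39). The 10 genes summed to 618 to 4520 CPM with PAM3CSK4 and 7888 to 10426 CPM with vehicle. Of 10 monocyte genes tested, 3 were lower and 0 higher, namely the chemokine receptor Ccr2 (−1.80 ± 0.31), Fn1 (−3.16 ± 0.58) and Ace (−3.16 ± 0.47), and the 10 summed to 796 to 1238 CPM with PAM3CSK4 and 1554 to 2307 CPM with vehicle. Of the 7 endothelial genes tested, the growth factor receptor Kdr (log2 change 2.70 ± 0.64, adjusted p = 0.034) and Pecam1 (1.65 ± 0.34, adjusted p = 0.021) were higher with PAM3CSK4, and the scavenger receptor Stab2 was lower (−1.68 ± 0.27, adjusted p = 0.0073). Stab2 reached 1 CPM in no PAM3CSK4 library and was tested only through vehicle libraries, where it is high. The 14 listed endothelial genes summed to 63.4 to 159 CPM with PAM3CSK4 and 30.9 to 41.3 CPM with vehicle, opposite in direction to Vwf. Of 11 resident macrophage genes, Mrc1 (−3.78 ± 0.63), Cd163 (−3.12 ± 0.32) and Axl (−2.17 ± 0.39) were lower with PAM3CSK4, and Cd5l (2.92 ± 0.52) and Spic (2.29 ± 0.55) were higher. The 12 listed resident macrophage genes summed to 241 to 1425 CPM with PAM3CSK4 and 608 to 1030 CPM with vehicle. Of 9 erythroid genes tested, Hbb-bs (3.22 ± 0.68), Hbb-bt (2.63 ± 0.63) and Alas2 (2.29 ± 0.52) were higher and 0 were lower. Among all genes tested 2.82% were higher. The 11 listed erythroid genes summed to 99.0, 397, 282 and 1234 CPM with PAM3CSK4 and 47.1, 38.5, 22.4 and 232 CPM with vehicle. Sox4 and Ly6a were higher among 9 progenitor genes tested, as was Mmp8 among 9 neutrophil genes. The 12 listed progenitor genes summed to 164 to 376 CPM with PAM3CSK4 and 259 to 479 CPM with vehicle. The 10 listed neutrophil genes summed to 471 to 11401 CPM with PAM3CSK4 and 405 to 789 CPM with vehicle. The part of these cell types in the changes of Pf4 and Vwf was not tested.

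Itga2b was at 0.915, 2.02, 1.09 and 15.9 CPM with PAM3CSK4 and at 3.74, 1.42, 1.66 and 5.13 CPM with vehicle. The groups overlapped, PAM3CSK4 replicate 4 was the highest library, and the other 3 PAM3CSK4 libraries lay at the lower end. The log2 change was 0.03 ± 0.60 (adjusted p = 0.98), and without PAM3CSK4 replicate 4 it was −0.69 ± 0.34 (adjusted p = 0.25). Gp1bb followed the same library, with 0.0473, 0.0001, 0.0947 and 2.95 CPM with PAM3CSK4 and 0.0001, 0.195, 0.0001 and 0.184 CPM with vehicle. Its reads may again be shared with Sept5. In PAM3CSK4 replicate 4, Pf4 at 2.89 CPM and Vwf at 7.64 CPM were not raised above vehicle, in contrast to Itga2b and Gp1bb.

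Gp9 was at 0.253, 0.0710, 0.396 and 1.32 CPM with PAM3CSK4 and at 0.363, 0.580, 0.102 and 1.32 CPM with vehicle. Ppbp was at 0.410, 0.602, 0.0662 and 0.245 CPM with PAM3CSK4 and at 0.154, 0.396, 0.0001 and 0.886 CPM with vehicle. Treml1 was at 0.0316, 0.0001, 0.0001 and 0.291 CPM with PAM3CSK4 and at 0.0001, 0.289, 0.0001 and 0.108 CPM with vehicle. The groups overlapped for all 3, whose values came from at most 86, 53 and 19 reads at 1 read per step. With no filter on low values their log2 changes were −0.086 ± 0.31 for Gp9, −0.0045 ± 0.22 for Ppbp and −0.025 ± 0.12 for Treml1 and did not pass.

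**Figure D3:**
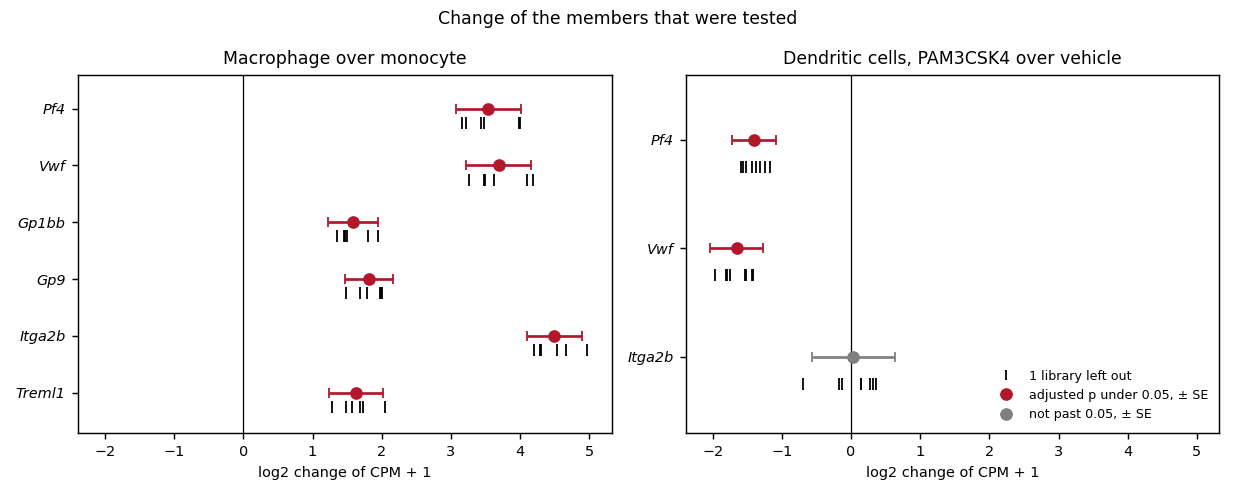
Log2 changes of CPM + 1 (dots, ± SE) of the members tested, for macrophages over monocytes and for PAM3CSK4 over vehicle in dendritic cells; ticks give the change with 1 library left out. Pf4 and Vwf lie right of 0 in the first comparison and left of 0 in the second, and the ticks of Itga2b in dendritic cells fall on both sides of 0.

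Of the further megakaryocyte and platelet genes, 1 of 34 tested passed in dendritic cells, where 2.29% of all genes tested were lower and 2.82% higher. The median log2 change of the 34 was 0.03, beside 0.20 for all genes tested. Tbxas1, which makes thromboxane and is also a gene of macrophages, was at 15.02, 35.2, 18.7 and 14.9 CPM with PAM3CSK4 and 50.3, 42.2, 41.1 and 40.3 CPM with vehicle (log2 change −1.10 ± 0.27, adjusted p = 0.039). With 1 library left out, 0 to 4 of these genes passed, and the 4 were all lower and came without PAM3CSK4 replicate 4. Gp1ba did not overlap between the groups, at 5.71, 3.86, 3.60 and 4.66 CPM with PAM3CSK4 and 7.78, 6.80, 13.7 and 8.16 CPM with vehicle, but did not pass (log2 change −0.86 ± 0.26, adjusted p = 0.077). The thrombin cofactor receptor F2rl2 did not pass (−1.21 ± 0.34, adjusted p = 0.062), nor did Itgb3 (0.01 ± 0.36) or Cd9 (−0.66 ± 0.31). The regulators Fli1, Runx1, Etv6 and Lyl1 had log2 changes of 0.01 ± 0.24, 0.79 ± 0.31, 0.35 ± 0.21 and −0.64 ± 0.33 and did not pass. Gp6 was at the lowest value in all 8 libraries.

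**Figure D4:**
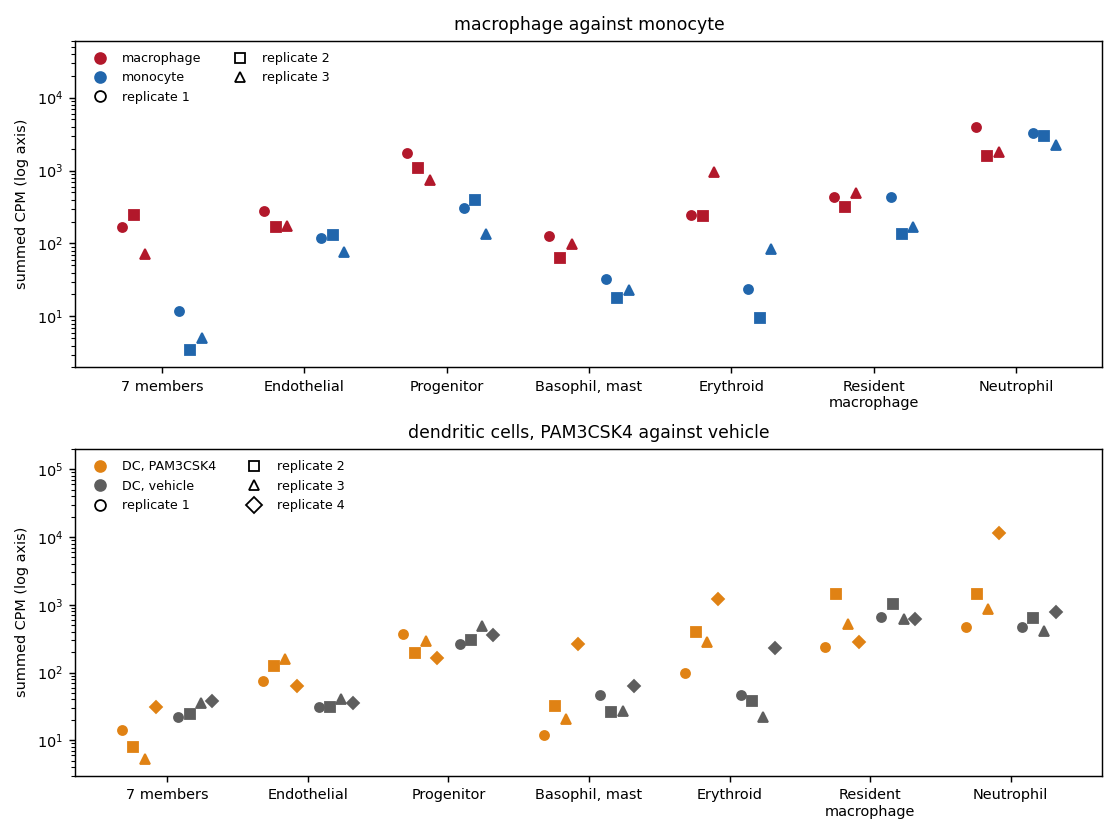
Summed CPM (log axis) of the 7 members and of 6 marker lists in each library, for macrophages and monocytes (top) and for dendritic cells after PAM3CSK4 and vehicle (bottom); symbols mark replicates. PAM3CSK4 replicate 4 is highest for the basophil, erythroid and neutrophil lists, at 260, 1234 and 11401 CPM, and the 7 members sum to 71.2 CPM or more in every macrophage library.

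Side by side, Pf4 averaged 20.9 ± 10.4 CPM in macrophages (SD, n = 3), 1.75 ± 1.04 CPM in PAM3CSK4 dendritic cells, 6.06 ± 1.89 CPM in vehicle dendritic cells (n = 4 each) and 0.924 ± 1.15 CPM in monocytes (n = 3). Ranges of PAM3CSK4 dendritic cells and monocytes overlapped, and those of macrophages and vehicle dendritic cells did not. Vwf averaged 54.3 ± 32.0 CPM in macrophages, 6.19 ± 4.05 CPM with PAM3CSK4, 19.6 ± 6.001 CPM with vehicle and 3.08 ± 2.15 CPM in monocytes, and the ranges of macrophages and vehicle dendritic cells overlapped. Itga2b averaged 68.8 ± 32.8 CPM in macrophages, 4.98 ± 7.30 CPM with PAM3CSK4, 2.99 ± 1.77 CPM with vehicle and 1.87 ± 0.72 CPM in monocytes, and the ranges of the last 3 groups overlapped. Levels of dendritic cells come from the other table, which may have been scaled separately, so no test was made between dendritic cells and the other populations.

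The genes whose log2 levels followed a member most closely differed between members. Over the 8 dendritic cell libraries the nearest to Pf4 was the cannabinoid receptor Cnr2 (Pearson r = 0.974, and 0.902 for deviations from the group means). The nearest to Vwf was F2rl2 (r = 0.984, and 0.961 for deviations), and the nearest to Itga2b were the basophil proteases Prss34 (r = 0.997, and 0.998 for deviations) and Mcpt8 (0.987 and 0.987). Prss34 was at 6.09, 13.7, 7.83 and 137 CPM with PAM3CSK4 and 28.9, 11.4, 11.04 and 38.2 CPM with vehicle. Pf4 and Vwf, both lower with PAM3CSK4, had r = 0.784 with each other and 0.279 for deviations from the group means. Over the 6 libraries of macrophages and monocytes, the nearest to Itga2b were Skap1 (r = 0.999) and Mfsd2b (0.998), the nearest to Pf4 were Dusp2 (0.998) and Asb2 (0.996), followed by Vwf (0.993, and 0.945 for deviations). Coefficients over so few libraries, chosen as the highest among all genes tested, are descriptions only.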

How the data were processed

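RNA sequencing of 14 libraries was read from 2 tables of CPM that the authors deposited under the name FPKM. Within each library most low values lay on whole multiples of 1 step, the same for short and long genes, so no division by gene length had been made. Among values up to 50 steps, 66.6% to 90.9% were whole within 0.05 steps, too few to recover counts, so no count test was made. The submitters' processing notes name mm10, STAR 2.5.3a and Partek without roles. Annotation and strand setting are not stated there. RNA came from a column kit and libraries from a kit with ribosomal RNA depletion, per the labels' protocols. A further 3 columns, named for dendritic cells without a treatment, match no single sample and were not used.

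For each table on its own, limma 3.58.1 (R 4.3.3) was fitted to log2(CPM + 1) with a trended prior variance. Genes needed 1 CPM or more in at least 4 (dendritic cells) or 3 libraries, p-values were adjusted by Benjamini-Hochberg across every gene fitted, and the threshold was 0.05. The fit was tested on simulated data. Members, gene lists and tests were chosen with earlier results of these data known. All 7 members are named. Other named genes were drawn from further megakaryocyte and platelet genes past the threshold or among the 4 highest of a role. They were also drawn from the corresponding genes of the marker lists (3 highest) and the 3 genes most like each member. Not every gene that met these rules is named. Gp6, Cdh5, Cldn5, Sox18, Itgax, Siglec1, Ccr7, Vcan and Ly6c2 were named after their values were seen. A further listed gene is not reported here. Alternatives were other pseudocounts, filters, scalings, no trend, a replicate block and leaving out each library. Promoters are from RefSeq, and spans and lengths from GENCODE M21.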

Additional observations from a re-analysis of the deposited data

Results flagged for a closer look

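In groups of 4, the most extreme library was set against the nearest other one with Dixon's test, for 14 groups of members, and 3 groups had a library far from the rest. All 3 are PAM3CSK4 replicate 4 in dendritic cells. Itga2b was at 15.9 CPM there, Gp1bb at 2.95 CPM and Treml1 at 0.291 CPM. Chance marks about 1 in 20 groups of normally distributed values. The rate for these CPM values, some of which are at the lowest value, was not determined. The same library held 260 CPM over 7 basophil and mast cell genes, where the other PAM3CSK4 libraries held 12.1 to 32.1 CPM. Its Gata1 level was 14.9 CPM, against at most 0.815 CPM in the other PAM3CSK4 libraries and at most 4.83 CPM with vehicle. The part of these cells in the levels of the 3 genes was not tested.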

How the results depend on the processing

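In macrophages against monocytes, 6 members were higher in the main result, 4 after quantile normalization and 5 to 7 with 1 library left out. The 5 without macrophage replicate 1 and the 7 without monocyte replicate 1 included Ppbp, which the main result did not test. Without macrophage replicate 1, Gp1bb and Treml1 were lost. Further genes numbered 15 to 25 calls with 1 library left out, an alternative chosen after seeing the data. All genes called numbered 2468, and 1699 to 3364 with 1 library left out. In dendritic cells, 2 members were called, 0 with no filter on low values and 0 to 2 with 1 library left out, and 0 to 4 further genes. All genes called numbered 582, 32 with no filter, and with 1 library left out 184 (vehicle replicate 2) to 1008 (PAM3CSK4 replicate 1). Higher genes made up 55.2% of calls as deposited, and 41.4%, 29.9% and 34.5% after rescaling to a common total, median centring and quantile normalization, where the median log2 change was 0.07, −0.02 and 0.02. In macrophages the share was 63.4%, and 72.9%, 51.3% and 47.4% after these scalings, with a median of 0.10 as deposited and 0.26, −0.02 and −0.02 after them. Pf4 and Vwf kept their direction in every setting tried. Itga2b in dendritic cells, which never passed, turned negative with a pseudocount of 0.1 (−0.10) or 0.5 (−0.024), after rescaling (−0.081), median centring (−0.19) and quantile normalization (−0.11), and without PAM3CSK4 replicate 4 (−0.69) or vehicle replicate 2 (−0.17) or 3 (−0.13), within a range of −0.69 to 0.36 over the libraries left out; the cause was not tested.

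With the replicate number as a block, 976 genes were called in dendritic cells and 2609 in macrophages against monocytes, and the members called were the same in number (2 and 6). The numbers were not taken as pairs, because nothing in the labels says that they mark shared mice or days. Deviations of libraries that share a number correlated at 0.03, 0.29, −0.12 and 0.30 in dendritic cells. In macrophages and monocytes they correlated at 0.18, 0.08 and 0.12. Every macrophage library correlated best with the monocyte library of its own number, and 2 of 4 PAM3CSK4 libraries with theirs, as a hint from the data only. The 4 members below the filter in dendritic cells had at most 193 reads in any library, at 1 read per step.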

Other observations

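Some genes of late megakaryocytes and platelets were unevenly held by the macrophage libraries. Tubb1, the platelet beta tubulin, was at 1.11, 15.6 and 2.07 CPM in macrophage replicates 1 to 3 and 0.212, 0.0602 and 0.9002 CPM in monocytes. Myl9, a myosin light chain, was at 0.0898, 4.23 and 0.346 CPM in macrophages and 0.177, 0.0001 and 0.0939 CPM in monocytes. The podoplanin receptor Clec1b was at 0.868, 2.73 and 0.825 CPM in macrophages and 0.212, 0.741 and 0.244 CPM in monocytes. Thbs1, the granule protein thrombospondin, which monocytes also express, was at 5.53, 119 and 15.3 CPM in macrophages and 19.0, 31.6 and 22.9 CPM in monocytes. Replicate 2 was the highest macrophage library for these genes, as for Ppbp, whereas the progenitor regulator Hlf, at 268, 125 and 112 CPM in macrophages and 2.21, 4.45 and 1.35 CPM in monocytes, was highest in replicate 1. Other platelet genes did not follow replicate 2. Selp, at 7.89, 6.73 and 2.22 CPM, and Mmrn1, at 33.9, 28.4 and 13.3 CPM, were highest in macrophage replicate 1, as were Gp1bb and Hlf. The part of progenitor RNA in the levels of Selp and Mmrn1 was not tested. All genes of this paragraph were picked after their values were seen and carry no test.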
